A study of Mus musculus with 2 samples.

Results

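*Hand1* and *Hand2* are the 2 mouse genes for the HAND transcription factors, and open chromatin around them was described from ATAC-seq of wildtype embryonic hearts at E11.5. Accessible regions found in both replicates were taken within 1 kb of the annotated starts of each gene and in the gene body plus 250 kb on each side. These windows held 94 of the 98924 shared regions of the whole data set, 48 around *Hand1* and 46 around *Hand2*. Each of the 2 replicates was made from 2 microdissected hearts of FVB embryos at 49 to 51 somites, and about 50000 cells or nuclei went into the reaction with Tn5, the transposase that inserts sequencing adapters into open DNA. A single tissue, stage and genotype were profiled, so there was no comparison between groups and no test, and values are given for both replicates side by side. The hearts were whole and hold many cell types, so a site open in few cells and a site weakly open in many cannot be told apart. Nothing in the labels says whether the replicates share a litter or a day.

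HAND proteins belong to the TWIST-type branch of the basic helix-loop-helix (bHLH) family. They dimerise with the widely expressed E-proteins, and the dimers bind short DNA motifs called E-boxes. In the embryonic heart, HAND1 is best known from the left ventricle and outer curvature, and HAND2 from the second heart field, right ventricle and outflow tract, where mouse embryos without it fail to form a proper right ventricle. Both are also known from the pharyngeal arches, the sympathetic neuron lineage and the limb or lateral mesoderm. *Hand2* has a long noncoding antisense neighbour, *Hand2os1*, also known as Upperhand.

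Peak height is given as fold enrichment, the number of extended reads stacked at a peak summit over the genome-wide background, with 1 added to both. A background of 2.68 reads (replicate 1) and 2.98 reads (replicate 2) was worked out from the spacing of the deposited values, which turned each height into a whole number of reads with an exact Poisson 95% interval. These intervals cover counting error only. Replicate 1 had 118027 peaks with a median fold enrichment of 5.70, and replicate 2 had 114783 with a median of 5.03. Both members lie on assembled chromosomes of GRCm38/mm10 and are annotated in GENCODE M21. *Hand1* (ENSMUSG00000037335.13) is on the minus strand of chromosome 11 at chr11:57828705-57832818 and has 2 annotated starts, at 57832818 and 57832147. *Hand2* (ENSMUSG00000038193.4) is on the plus strand of chromosome 8 at chr8:57320983-57324633 with a single start at its first base. Distances run from the outermost start to the replicate 1 summit, and negative distances are upstream.

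Sequences are shown for 7 tall regions that lie outside protein-coding genes and away from protein-coding starts, 4 around *Hand1* and 3 around *Hand2*, so that the DNA under distal regions described below can be read. Not every region of this kind is shown. The labels name the window and not the nearest gene. The nearest protein-coding start is that of *Sap30l* for the *Hand1* region at 20.4 kb and that of *Larp1* for the other *Hand1* regions shown. For the *Hand2* region at 80.4 kb it is that of *Scrg1*. Each runs from 100 bp before to 100 bp after the replicate 1 summit in the GRCm38 reference, and the embryos were of another strain than the reference. Capitals mark letters that match motifs of cardiac factors on either strand: the E-box CANNTG with the form CATCTG that HAND dimers favour, AGATAA for GATA factors, TNAAGTG for NKX2-5 and AGGTGT for T-box factors. Letters of TEAD (GGAATG) and MEF2 (CTA and TAG with 4 bases between) were searched too and are in none of them.
Hand1 region at −129.8 kb, chr11:57962542-57962742, plus strand: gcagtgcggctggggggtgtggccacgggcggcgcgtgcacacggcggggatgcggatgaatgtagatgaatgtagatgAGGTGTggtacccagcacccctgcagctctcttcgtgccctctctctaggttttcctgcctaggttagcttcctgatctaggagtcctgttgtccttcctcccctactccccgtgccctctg
Hand1 region at −127.3 kb, chr11:57960061-57960261, plus strand: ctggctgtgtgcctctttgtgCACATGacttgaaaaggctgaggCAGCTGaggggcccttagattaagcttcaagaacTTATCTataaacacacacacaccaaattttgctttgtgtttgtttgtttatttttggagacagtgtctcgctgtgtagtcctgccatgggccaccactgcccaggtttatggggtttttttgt
Hand1 region at −121.8 kb, chr11:57954533-57954733, plus strand: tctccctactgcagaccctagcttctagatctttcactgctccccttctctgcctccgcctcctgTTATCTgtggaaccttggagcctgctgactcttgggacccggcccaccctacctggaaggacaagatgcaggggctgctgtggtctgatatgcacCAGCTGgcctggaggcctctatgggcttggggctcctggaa
Hand1 region at 20.4 kb, chr11:57812324-57812524, plus strand: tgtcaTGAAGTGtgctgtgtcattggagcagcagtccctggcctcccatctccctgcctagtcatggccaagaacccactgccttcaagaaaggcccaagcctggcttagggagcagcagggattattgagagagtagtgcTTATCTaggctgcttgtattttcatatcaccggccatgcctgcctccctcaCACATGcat
Hand2 region at 10.9 kb, chr8:57331832-57332032, plus strand: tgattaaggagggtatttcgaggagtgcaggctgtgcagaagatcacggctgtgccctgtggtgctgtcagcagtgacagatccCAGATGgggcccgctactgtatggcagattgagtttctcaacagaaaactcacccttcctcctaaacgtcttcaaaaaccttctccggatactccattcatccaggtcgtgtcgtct
Hand2 region at 32.9 kb, chr8:57353791-57353991, plus strand: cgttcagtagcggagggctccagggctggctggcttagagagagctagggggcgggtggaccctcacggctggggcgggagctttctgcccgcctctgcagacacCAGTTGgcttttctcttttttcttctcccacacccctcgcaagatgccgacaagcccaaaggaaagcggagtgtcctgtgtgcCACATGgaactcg
Hand2 region at 80.4 kb, chr8:57401260-57401460, plus strand: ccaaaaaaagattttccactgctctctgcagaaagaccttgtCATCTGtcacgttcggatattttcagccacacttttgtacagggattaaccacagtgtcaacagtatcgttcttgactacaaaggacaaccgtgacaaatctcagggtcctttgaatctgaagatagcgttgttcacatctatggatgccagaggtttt

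The promoter of *Hand2* lies inside its start region and is shown as the 250 bp before the start in RefSeq (GRCm38.p6), with the same motifs in capitals. *Hand1* has no entry in the RefSeq promoter table used.
Hand2 promoter, chr8:57320733-57320982, plus strand: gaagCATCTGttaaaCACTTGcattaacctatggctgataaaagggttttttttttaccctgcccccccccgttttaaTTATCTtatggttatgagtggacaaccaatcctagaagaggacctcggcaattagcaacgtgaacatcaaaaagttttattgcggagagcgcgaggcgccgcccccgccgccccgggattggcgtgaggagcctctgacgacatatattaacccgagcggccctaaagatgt
An E-box of the CATCTG form begins at −246 from the start, another E-box, CACTTG, at −235, and the reverse complement of the GATA motif at −172. Among 32851 RefSeq promoter windows of this length, 66.2% held an E-box, 14.4% the CATCTG form and 9.99% the GATA motif.

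Both genes had accessible chromatin at their starts in both replicates, but *Hand2* much more of it. Across 21755 protein-coding genes on chromosomes 1 to 19 and X, 68.1% had a shared region within 1 kb of an annotated start. A single region of 5184 bp, chr8:57319158-57324341, covered the *Hand2* start, its exons and 92.0% of the gene body. Its fold enrichment was 25.0 in replicate 1, from 91 reads (95% interval 73.3 to 112), and 22.1 in replicate 2, from 87 reads (69.7 to 107). The summits lay 42 bp after and 5 bp before the start. *Hand1* had 3 smaller regions at its starts.

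The highest of the *Hand1* start regions, chr11:57831554-57832372, reached a fold enrichment of 10.05 in replicate 1, from 36 reads (25.2 to 49.8), and 8.04 in replicate 2, from 31 reads (21.1 to 44.0). It covers coding sequence around the inner start, with its summit at 0.745 kb. The region over the outermost start, chr11:57832643-57832911, was low in both replicates, with fold enrichments of 4.35 and 4.27 from 15 and 16 reads. The region at −1.01 kb, chr11:57833612-57833959, reached 4.07 and 4.02. The *Hand2* start was thus 2.49 times as high as the highest *Hand1* start region in replicate 1 and 2.75 times as high in replicate 2, and the counting intervals of the genes did not overlap in either replicate. The plot of peaks from 25 kb before to 40 kb after each start shows the difference in extent.

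**Figure D1:**
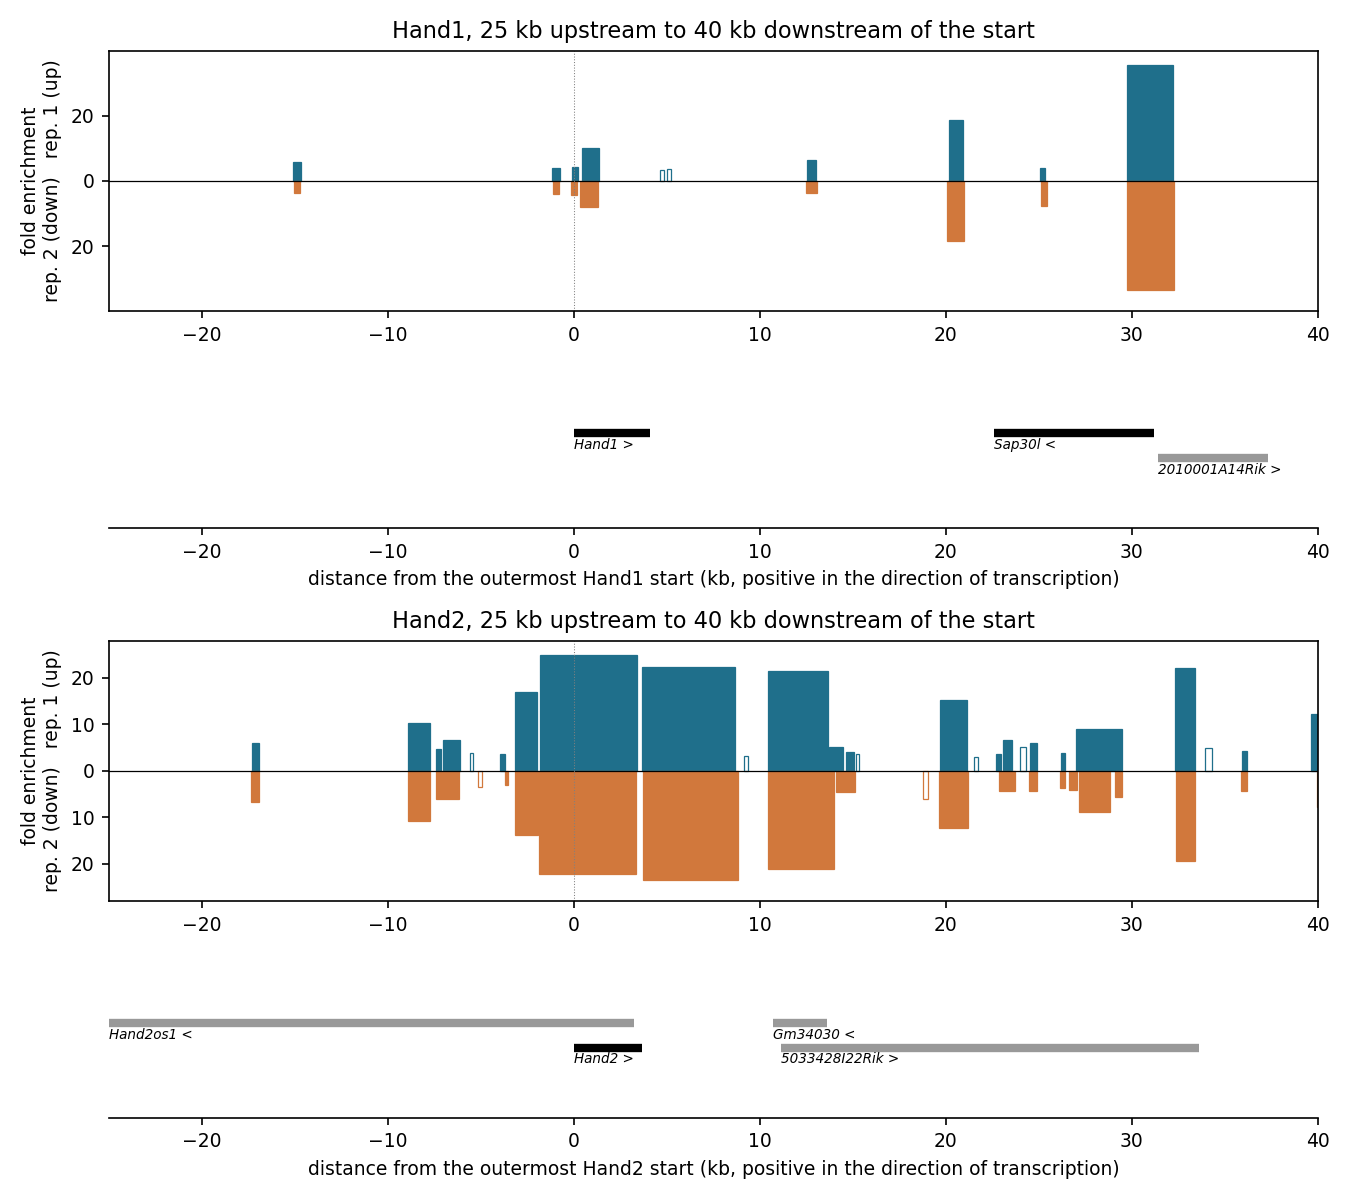
Peaks around the starts of *Hand1* and *Hand2*, by distance in kb (x axis) and fold enrichment (y axis, replicate 1 upward and replicate 2 downward). Filled bars are peaks that form shared regions, open bars were called in a single replicate, and the gene tracks show protein-coding genes in black and noncoding genes in grey. Broad bars cover the *Hand2* start and the DNA on either side, while the *Hand1* start has 3 short bars and its nearest tall bars are at 20.4 kb and at the *Sap30l* start.

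Set beside all protein-coding genes, the mean height at the *Hand2* start (23.6) exceeded that of 64.1% of genes, counting genes without a region as 0, and of 47.3% of the genes that have a region, whose median was 24.5. The mean height at the *Hand1* starts (9.05) exceeded that of 41.2% of genes and of 13.7% of those with a region. So *Hand2* stood near the middle in height and *Hand1* in the low part. By coverage of the gene body, both stood higher among genes. The 24.2% of the *Hand1* body covered by shared regions was more than in 77.5% of the 1756 genes of 3 to 5 kb, the size class of both members, and the 92.0% of *Hand2* was more than in 99.7% of them. The median gene of that class had 4.47% covered.

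The region at the *Hand2* start was part of a longer stretch of open chromatin. Within 25 kb of the start, 16 shared regions covered 20668 bp, against a median of 3 regions and 2106 bp across protein-coding genes. By base pairs, 99.99% of genes had less. *Rbm38* with 23852 bp and *Slc4a1*, the red cell anion exchanger, with 22794 bp were the genes with more, and they are named here because they were seen above *Hand2*. *Hand1* had 6 regions and 3047 bp in the same distance, more than 65.9% of genes, and with a q-value of at most 1e-10 in both replicates 1591 bp, more than 47.1%. Joining shared regions separated by gaps of at most 3 kb, a limit chosen after the lists were seen, gave 18091 clusters of several regions in the genome, and the cluster across *Hand2*, chr8:57312050-57336039, ran for 24.0 kb from −8.93 to 15.1 kb. Its 11 regions covered 17841 bp, or 74.4% of it, and 99.98% of clusters covered fewer base pairs.

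Directly after the *Hand2* gene came a region of 4936 bp that overlaps no annotated gene. Its fold enrichment was 22.3 from 81 reads in replicate 1 and 23.4 from 92 reads in replicate 2, with summits at 7.90 and 8.18 kb. The next, chr8:57331423-57334655 with its summit at 10.9 kb, reached 21.5 and 21.1 and holds the starts of the long noncoding RNAs *Gm34030* and *5033428I22Rik*. The counting intervals of both overlapped that of the *Hand2* start in both replicates, so no order among the 3 is resolved. Lower regions of the cluster lay at −7.29 kb (4.62 and 6.03), at −3.87 kb (3.53 and 3.02), at 14.7 kb (4.07 and 4.53) and at 13.9 kb, where a replicate 1 peak of 5.16 touched both a replicate 2 peak of 4.53 and the edge of the long peak before it. The replicate 2 peak of 4.53 is the same at 13.9 and 14.7 kb. The regions at −7.29 and −3.87 kb do not hold both summits. The first shares its replicate 2 peak of 6.03 with the region at −6.85 kb, and the second is an overlap of 14 bp. Peaks of 5 kb or longer were rare, 44 in replicate 1 and 64 in replicate 2, and the peaks at the *Hand2* start (5189 and 5217 bp) and just after the gene (5017 and 5107 bp) were among them in both.

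Directly upstream of *Hand2*, several regions lay over *Hand2os1*. At −2.97 kb, on an exon of *Hand2os1*, the fold enrichment was 16.8 in replicate 1 and 13.8 in replicate 2. At −8.45 kb it was 10.3 and 10.8, and at −6.85 kb 6.52 and 6.03, and these 3 regions lie within 1 kb of annotated *Hand2os1* starts. A weaker region at −17.2 kb in a *Hand2os1* intron reached 5.98 and 6.79. *Hand2os1* is annotated with 32 starts, and its outermost lies 3.2 kb inside the *Hand2* gene body, so the open chromatin at that start cannot be told apart from that of *Hand2* in these lists.

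Farther downstream of *Hand2*, a second cluster of 10 regions ran for 16.5 kb, chr8:57340653-57357164, along the noncoding gene *5033428I22Rik*. Its tallest region, at 32.9 kb on an exon of that gene, had a fold enrichment of 22.0 from 80 reads in replicate 1 and 19.4 from 76 reads in replicate 2. The regions at 20.05 kb (15.2 and 12.3) and 28.4 kb (8.96 and 8.80) were lower in both replicates. The replicate 1 peak at 28.4 kb overlaps several replicate 2 peaks, so it counts more than once among the 10 regions. The other regions of this stretch within 25 kb of the start were lower still, at 22.9 kb (3.53 and 4.27), 23.3 kb (6.52 and 4.27) and 24.7 kb (5.98 and 4.27). The region at 22.9 kb is an overlap of 97 bp without both summits, and it shares its replicate 2 peak with the region at 23.3 kb.

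Beyond these clusters and the neighbouring starts, the regions of the *Hand2* window with a mean of 10 or more stood apart from each other. At −71.7 kb, in the gene-free upstream flank, the fold enrichment was 17.9 in replicate 1 and 13.3 in replicate 2. At 40.2 kb it was 12.2 and 7.79, and at 80.4 kb, in intergenic DNA, it was 19.6 and 15.8. At 210.1 kb, in an intron of *Galnt7*, it was 10.6 and 9.80. Of regions away from any annotated start that hold the summits of both replicates, the tallest by mean was at 147.8 kb in an intron of *Scrg1*, with 24.4 and 19.4 from 89 and 76 reads. Its intervals overlapped those of the *Hand2* start. They also overlapped those of the region at 32.9 kb, which was equally high in replicate 2, so no order between these is resolved. The other shared regions upstream of −17.2 kb did not exceed 9.51 in either replicate.

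**Figure D2:**
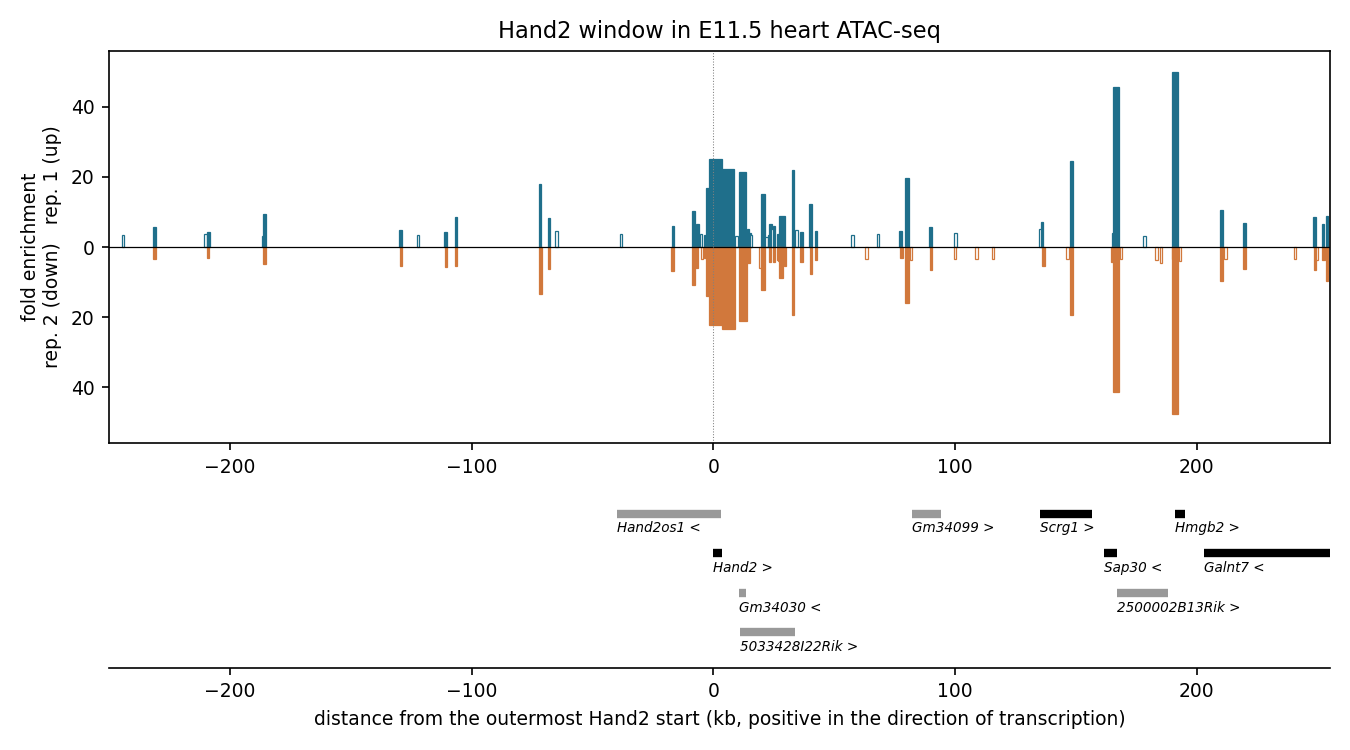
Peaks in the *Hand2* window by distance from the start in kb (x axis) and fold enrichment (y axis, replicate 1 upward and replicate 2 downward), with annotated genes below; filled bars form shared regions and open bars were called in a single replicate. The tallest bars stand at the starts of *Sap30* (45.6 and 41.2) and *Hmgb2* (50.0 and 47.5), and the densest bars surround *Hand2*.

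Around *Hand1*, unlike *Hand2*, open chromatin at the gene was modest. Tall regions lay far from the gene, as they also did in the *Hand2* window. Within 25 kb of either start, the region at 20.4 kb, chr11:57811890-57812661, stood above the start itself, at 18.7 from 68 reads (52.8 to 86.2) in replicate 1 and 18.4 from 72 reads (56.3 to 90.7) in replicate 2. These intervals did not overlap those of the highest *Hand1* start region in either replicate. It lies in intergenic DNA between *Hand1* and *Sap30l*, nearer to the *Sap30l* start. The others were low in at least 1 replicate, at 12.7 kb (6.52 and 3.77), at −14.9 kb (5.70 and 3.77) and at 25.2 kb in a *Sap30l* intron (4.07 and 7.54).

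The upstream flank of *Hand1* has no other protein-coding gene up to the start of *Larp1* at −176.2 kb, and it held a cluster of 6 regions at −131.0 to −119.8 kb, chr11:57952570-57963791. All 6 regions of this cluster are nearer to the *Larp1* start than to *Hand1*. Shared regions covered 5138 bp, or 45.8% of its 11.2 kb, and 97.9% of the 18091 clusters covered fewer base pairs. At −129.8 kb the fold enrichment was 22.3 from 81 reads (64.3 to 101) in replicate 1 and 22.1 from 87 reads (69.7 to 107) in replicate 2. At −127.3 kb it was 21.2 and 17.6, at −121.8 kb 19.01 and 24.4, and at −120.1 kb 13.9 and 19.4. The counting intervals of the first 3 overlapped each other in each replicate, so no order among them is resolved. The regions at −126.3 kb (6.52 and 8.55) and −128.2 kb (3.53 and 3.77) were lower.

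Single tall regions followed on either side of this cluster. At −151.4 kb the fold enrichment was 15.2 in replicate 1 and 18.4 in replicate 2, and at −83.3 kb it was 14.4 and 11.1. Between −83.3 kb and the gene, the regions at −43.6 kb (4.07 and 8.04) and −33.9 kb (7.06 and 5.28) were lower. The region nearest to the gene with a mean above 20 was thus, apart from the *Sap30l* start, at −121.8 kb. On the downstream side beyond the region at 20.4 kb, the regions without a start and with a mean of 10 or more lay in introns of *Galnt10*, at 125.2 kb (13.0 and 16.3), 177.7 kb (19.01 and 23.9) and 181.2 kb (17.4 and 20.9).

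**Figure D3:**
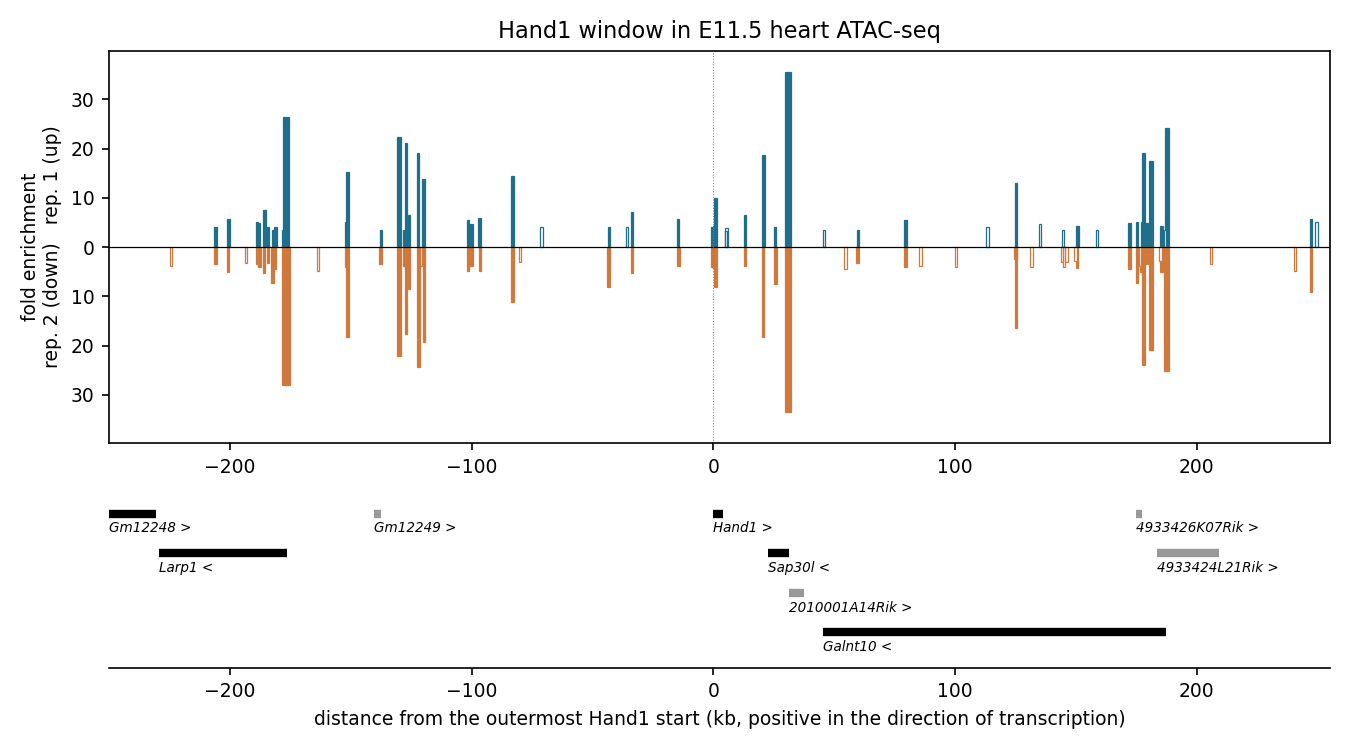
Peaks in the *Hand1* window by distance from the outermost start in kb (x axis, positive in the direction of transcription) and fold enrichment (y axis, replicate 1 upward and replicate 2 downward), with annotated genes below; filled bars form shared regions and open bars were called in a single replicate. The bars at the *Hand1* start reach at most 10.05, and taller ones stand at 20.4 kb, in the cluster at −131.0 to −119.8 kb and at the starts of *Sap30l*, *Larp1* and *Galnt10*.

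Some neighbours of the 2 genes are of the same gene families. Downstream of *Hand1* lie *Sap30l* and *Galnt10*, and downstream of *Hand2*, after *Scrg1*, lie *Sap30* and, beyond *Hmgb2*, *Galnt7*. SAP30 and SAP30L are subunits of the SIN3 corepressor, and the GALNT enzymes start mucin-type O-glycosylation of proteins. In both windows the tallest regions were at the starts of neighbouring genes. The *Sap30l* start, shared with the noncoding *2010001A14Rik*, reached 35.6 in replicate 1 and 33.4 in replicate 2, and the *Sap30* start, shared with *2500002B13Rik*, reached 45.6 and 41.2. *Hmgb2*, which encodes a high mobility group chromatin protein, reached 50.0 and 47.5. The start of *Larp1*, an RNA-binding regulator of translation, reached 26.3 and 27.9, and that of *Galnt10* 24.2 and 25.1.

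By mean height among regions that hold both summits, the *Hand2* start ranked 3 of 36 in its window, after *Hmgb2* and *Sap30*, and their counting intervals lay above that of *Hand2* in both replicates. The highest *Hand1* start region ranked 14 of 42. No shared region lay within 1 kb of the *Scrg1* start. *Galnt7* has 4 annotated starts, of which the outermost lies outside the window at 332 kb. The only shared region within 1 kb of any of them lies outside the window and reached 28.0 and 30.4. The region at a start of *Gm12248*, outside the *Hand1* window, reached 9.78 and 10.6. By distance, *Hand2* was the nearest protein-coding start for 32 of the 46 regions in its window, and *Hand1* for 8 of 48. The other regions of the *Hand1* window were nearest to *Larp1*, *Galnt10* or *Sap30l*.

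Over the whole windows the genes were alike in number of regions. There were 9.52 shared regions per 100 kb around *Hand1* and 9.13 around *Hand2*, against a median of 5.48 across protein-coding genes, and 88.1% and 86.1% of genes had fewer. Shared regions covered 5.66% of the *Hand1* window and 7.56% of the *Hand2* window, against a median of 3.37%. Where they lay differed. Of the regions away from any annotated start, 26 were upstream and 15 downstream of *Hand1*, and 10 were upstream and 24 downstream of *Hand2*. With a flank of 100 kb in place of 250 kb, the *Hand1* window held 14 regions and the *Hand2* window 29. With a q-value of at most 1e-10 in both replicates, 15 and 21 regions were left in the full windows, and the share of genes with a lower density was 56.0% for *Hand1* and 77.1% for *Hand2*.

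**Figure D4:**
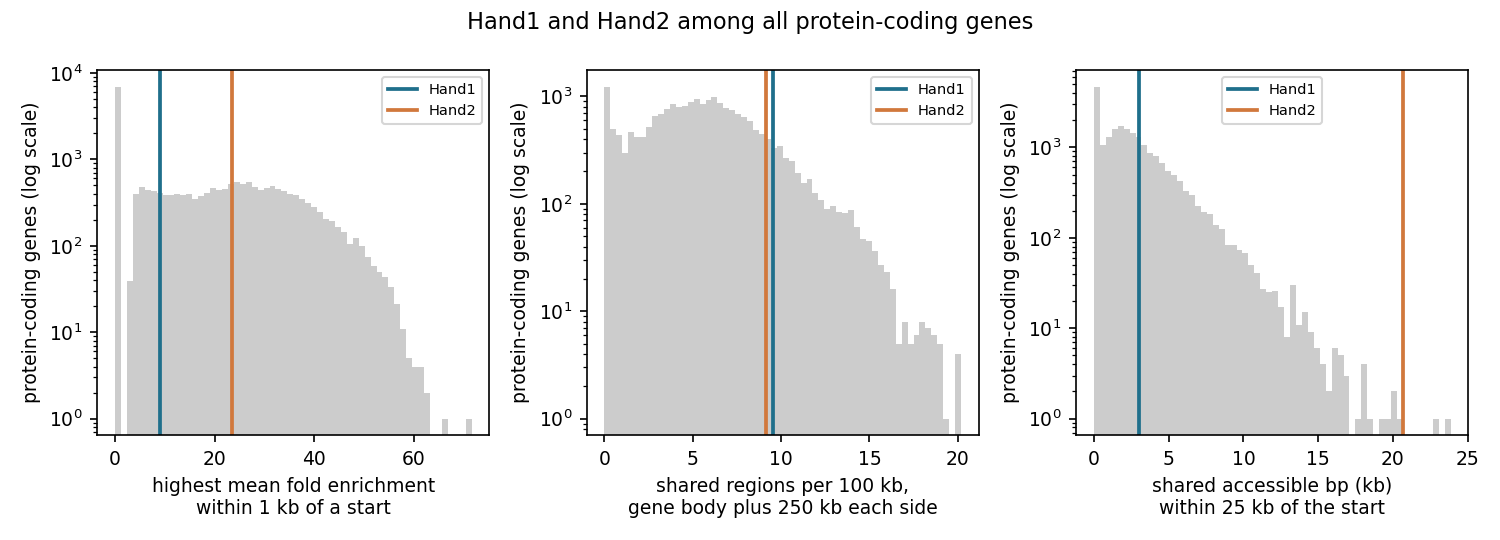
Histograms of all 21755 protein-coding genes (y axis, number of genes on a log scale) for the highest mean fold enrichment within 1 kb of a start, shared regions per 100 kb and accessible kb within 25 kb of the start (x axes), with vertical lines for *Hand1* and *Hand2*. The lines lie close together for density (9.52 and 9.13), and *Hand2* stands at the far right for accessible DNA near the start (20668 bp against 3047 bp for *Hand1*).

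Heights spread widely among the regions of each window. Around *Hand1* the lowest and highest fold enrichments were 3.53 and 35.6 in replicate 1 and 2.51 and 33.4 in replicate 2, and around *Hand2* they were 3.53 and 50.0, then 3.02 and 47.5. Among regions away from starts that hold both summits, 10 of 35 around *Hand1* and 6 of 27 around *Hand2* had a mean of 10 or more, against 16.1% of the 65225 such regions of the genome. Some shared regions are slivers where a long peak of 1 replicate touches a short peak of the other, such as 38 bp beside *Hmgb2* with 50.0 in replicate 1 and 3.52 in replicate 2. The 4 regions whose intervals did not overlap between replicates did not hold both summits. In the 42 and 36 regions that hold both summits, the intervals of the replicates overlapped in every region, and the largest ratio between replicates was 2.06 around *Hand1* and 1.99 around *Hand2*.

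**Figure D5:**
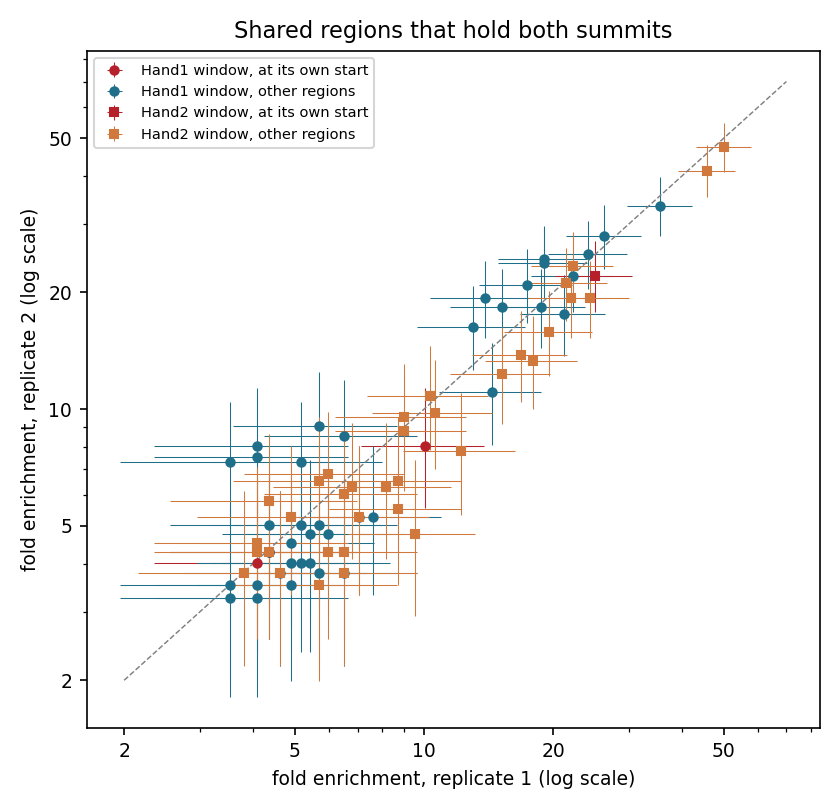
Fold enrichment in replicate 1 (x axis) and replicate 2 (y axis), both on log scales, for the 42 *Hand1* and 36 *Hand2* regions that hold both summits, with exact Poisson 95% intervals that cover counting error. The points follow the dashed line of equal height, the low ones have the widest intervals, and the *Hand2* start (red square) lies at 25.0 and 22.1, above the *Hand1* start regions (red circles).

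Across these regions, which share their libraries, Spearman's rho between replicates was 0.792 around *Hand1* and 0.892 around *Hand2*. Keeping regions that hold both summits itself selects for agreement between replicates. Over all shared regions of the windows, rho was 0.618 around *Hand1* and 0.704 around *Hand2*. Peaks called in a single replicate did not exceed a fold enrichment of 6.03. Around *Hand1*, 11 of 57 replicate 1 peaks and 17 of 64 replicate 2 peaks had no partner, with fold enrichments of 3.26 to 5.16 and 2.77 to 4.78. Around *Hand2* there were 17 of 59 and 15 of 57, at 2.99 to 5.16 and 3.27 to 6.03.

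Motif letters were counted within 100 bp of the replicate 1 summit, on both strands, in the 62 regions away from annotated starts that hold both summits, beside 65224 such regions of the genome. An E-box was found in 25 of 35 regions around *Hand1* and in 21 of 27 around *Hand2*, 74.2% together against 69.5% of all regions. The CATCTG form, whose every match is also an E-box match, was found in 10 and 5 regions, 24.2% against 17.7%. The GATA motif was in 11 and 5 regions (25.8% against 20.8%), and the MEF2 motif in 4 and 1 (8.06% against 5.05%). The shares of the NKX2-5 motif were 12.9% against 13.4%, those of the T-box motif 9.68% against 8.96% and those of the TEAD motif 16.1% against 16.8%. A loose form of the SRF motif, CC and GG with 6 bases between, which is not in capitals above, was in 28 regions around *Hand1* and 15 around *Hand2* (69.4% against 53.0%). This limit to regions with both summits was chosen after the values were seen, since the slivers repeat the window of another region or reach into a promoter. Over all 75 regions away from starts, slivers included, the E-box share was 73.3%, that of the CATCTG form 22.7%, that of the GATA motif 22.7% against 20.3% of all regions, and that of the MEF2 motif 8% against 4.93%. The SRF form was then in 30 of 41 regions around *Hand1* and 16 of 34 around *Hand2* (61.3% against 53.0%). The NKX2-5 and T-box letters can overlap an E-box, and a match is no evidence of binding.

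In the sequences shown, the *Hand1* region at 20.4 kb holds NKX2-5, GATA and E-box letters, starting at −95, 41 and 92 bp from the summit. The regions at −127.3 and −121.8 kb each hold the GATA motif, at −22 and −35 bp, with E-boxes, and the one at −129.8 kb holds the T-box motif at −21 bp and no E-box. Of the *Hand2* regions shown, those at 10.9 and 80.4 kb hold the CATCTG form, at −16 and −58 bp, and the one at 32.9 kb holds other E-boxes. Over the regions away from starts that hold both summits, base composition differed between the genes, with a median GC content of 53.2% in these *Hand1* regions and 46.8% in those of *Hand2*, against 49.8% in all such regions.

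Genes that work with the HAND factors were looked at in the same way, as counts of genes with a shared region at a start beside the 68.1% of all protein-coding genes. All 3 E-protein genes had one, with mean fold enrichments of 18.6 at *Tcf12*, 27.2 at *Tcf3* and 30.3 at *Tcf4*. Of 12 other TWIST-type bHLH genes, 8 had one. They ranged from 6.42 at *Ptf1a*, a pancreas and neuron factor, to 23.5 at *Tcf24*, and *Twist1*, known from mesenchyme, stood at 19.96. *Bhlha9*, *Ferd3l*, *Figla* and *Tcf23* had none. Of the other members of this list, none had more than 5330 bp of shared regions within 25 kb of its start, the value of *Twist1*, against 20668 bp at *Hand2*.

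All 15 regulators and pathway genes of HAND function in heart and arches that are reported had a shared region at a start. Means ranged from 5.10 at *Tbx5* to 37.8 at *Cited2*, a coactivator-binding protein. The cardiac factors *Gata4*, *Gata6*, *Nkx2-5*, *Mef2c*, *Tbx20* and *Isl1* stood at 16.2, 21.5, 10.6, 23.1, 32.9 and 29.1. The ligand gene *Edn1*, whose signal acts upstream of the HAND genes in the arches, stood at 9.77 and the gene of its receptor, *Ednra*, at 18.6, while the BMP ligand genes *Bmp2* and *Bmp4* stood at 22.0 and 18.6. *Cited2* also had the most shared DNA of this list within 25 kb of its start, 8717 bp.

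The labelled tissue was checked against marker genes. All 8 cardiomyocyte genes had a shared region at a start, against 68.1% of all protein-coding genes, with means of 11.9 to 24.0, below the median of 24.5 among genes with a region. So had all 6 endocardial and endothelial genes (4.33 to 16.5) and all 4 epicardial genes (7.44 to 23.3). Of 10 markers of other tissues, 3 had one. The blood genes *Hbb-y* (32.2) and *Klf1* (24.2) were open, *Myod1* of skeletal muscle was low at 5.21, and the liver genes *Alb* and *Afp*, the muscle genes *Myf5* and *Myog* and the neuron genes *Neurod1*, *Neurod2* and *Neurog1* had none. How much blood cells add to the regions near *Hand1* and *Hand2* was not tested.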

How the data were processed

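ATAC-seq of E11.5 hearts was used as the authors' peak lists, called per replicate. Per the paper's methods and the submitters' processing notes, the authors trimmed reads (Trim Galore 0.6.6, Cutadapt), mapped them to GRCm38/mm10 (Bowtie2 2.4.2), discarded duplicate and poorly mapped reads (SAMtools 1.12), which thins repeated sequence, and called peaks with MACS2 without local background on shifted and extended reads, so a summit marks a cut site only roughly. The lists' weakest p-values and shortest peaks differ from the limit and extension stated. The deposited fold enrichment is a ratio at the summit, the deposited −log10 p and q values belong to the same position, and the authors' score is the scaled −log10 q value. Read totals are not in the lists, so depth was recovered from the fold enrichment.

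Replicate 1 peaks were intersected with replicate 2 peaks (bedtools 2.31.1, at least 1 bp). Named were all regions at the starts, all within 25 kb and the 5 tallest of each window. Others, such as the distal *Hand1* cluster and the gene lists' examples, were named after their values were seen. The sequences were taken from tall regions. Some list genes and a sequence are not reported here. The members and lists were chosen with earlier results of these data known. The overlap step was tested on simulated data. Percentiles describe 21755 genes and are not tests. Alternatives were p and q limits, reciprocal overlap of 50%, whole replicate 2 peaks, each replicate alone, other flanks and start windows, summits and base pairs. The work was done in Python 3.11.15 with SciPy 1.17.1, pandas 2.3.3, NumPy 2.4.6 and Matplotlib 3.10.9.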

Additional observations from a re-analysis of the deposited data

How the results depend on the processing

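The height at the starts is that of deposited peaks, which limits and overlap rules cannot alter while the peaks are kept. It was 9.05 for *Hand1* and 23.6 for *Hand2* under each of these alternatives. A replicate alone gave the value of that replicate, 8.04 or 10.05 for *Hand1* and 22.1 or 25.0 for *Hand2*. These alternatives thus say nothing on how stable the height is. The number of regions followed the limits. For *Hand1*, 48 regions became 15 with a q-value of at most 1e-10, 14 with a flank of 100 kb and 81 with a flank of 500 kb, and for *Hand2* 46 became 21, 29 and 78. The share of genes with a lower density than *Hand1*, 88.1%, became 56.0% with the q-value limit, 63.0% with the 100 kb flank and 81.0% by base pairs, and 90.6% to 94.98% with either replicate alone. For *Hand2*, 86.1% became 77.1% with the q-value limit, 78.4% with reciprocal overlap, 84.2% with whole replicate 2 peaks, 95.8% and 82.5% with flanks of 100 and 500 kb, 92.4% by base pairs, and 91.1% to 92.1% with either replicate alone. The share of genes with a region at a start, 68.1%, became 67.8% with p-values of at most 0.00001, 63.1% with the q-value limit, 66.8% with reciprocal overlap, 67.0% by summits, 66.9% and 69.9% with 500 bp and 2 kb around starts, and 69.2% to 69.4% with either replicate alone. The alternatives for base pairs within 25 kb were chosen after seeing the data. They gave 18375 to 22540 bp for *Hand2*, more than in at least 99.977% of genes, and 1591 bp for *Hand1* with the q-value limit. Apart from the limits themselves, which remove regions by construction, the cause was not tested. No paired analysis was possible because there is a single group. With 9 to 188 reads at the summits, heights of low regions are known only within wide counting intervals.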
